A study of Homo sapiens with 6 samples.

Results

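The genes described here are 5 members of the CCN family of secreted matrix proteins (CCN1, CCN2, CCN3, CCN4 and CCN5), the transcriptional coactivator YAP1, and 4 genes known as YAP targets or Hippo pathway components (ANKRD1, AMOTL2, AJUBA and LATS2). The members are fixed by a list of names, put together with earlier results of these data known, and make up 10 of the 60671 named genes of the deposited table. All 10 were listed under these names. Of them 9 passed the filter on low counts and were tested, and CCN5 was too low to test. ANKRD1 passed that filter through its day 0 counts alone, so its later fall was partly set by the filter.

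The series concerns the chemical reprogramming of BJ cells into cells that the submitters call FiNs. BJ is an established fibroblast line from normal human foreskin, labelled wild type. RNA was sequenced from 6 libraries, 2 for each of 3 time points. The day 0 cells had grown to 80% density on dishes coated with poly-D-lysine, in DMEM with 10% fetal bovine serum. The day 2 cells had then spent 2 days in a neuronal induction medium with 10 µM forskolin, and the day 5 cells a further 3 days in a neuronal maturation medium with 10 µM forskolin. Forskolin activates adenylyl cyclase and raises cAMP. Serum, medium, drug and time changed together after day 0 and cannot be told apart. All libraries came from 1 cell line, and no label ties the libraries of a day to separate cultures. The p-values below therefore measure the spread between these libraries only, which may be technical.

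YAP1 and its paralogue TAZ (gene WWTR1) are coactivators that enter the nucleus and bind DNA through TEAD transcription factors. In the Hippo pathway the kinases STK3 and STK4, with their scaffold SAV1, activate LATS1 and LATS2, which phosphorylate YAP and TAZ and hold them in the cytoplasm. Dense culture, a soft matrix, loss of actin tension, serum withdrawal and cAMP signalling through protein kinase A are known to favour that phosphorylation. CCN1 and CCN2 are classical YAP and TEAD targets in fibroblasts. They bind integrins and heparan sulfate at the cell surface and act on adhesion, migration and matrix production.

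Library totals lay between 17599504 and 27941919 counts, with the day 5 libraries the shallowest. At these depths 3 counts corresponded to 0.103 to 0.180 CPM, where CPM is the count scaled to a common library size with TMM factors. The gene IGFBP5 held 10.7% of the counts in both day 5 libraries and 0.355 to 0.380% in the other 4. Without TMM factors, using library totals only, the median log2 fold change over all genes shifted by -0.18 at day 2 and -0.21 at day 5 against day 0. Changes below use the TMM factors. All 10 fibroblast markers were at 1 CPM or more on every day, and their summed level ranged from 19350 to 19700 CPM at day 0, from 16860 to 17090 CPM at day 2 and from 30550 to 30950 CPM at day 5. Of 10 neuronal markers, 4, 4 and 3 reached 1 CPM at days 0, 2 and 5. Their summed level went from 242.8 and 251.3 CPM at day 0 to 106.7 and 110.9 at day 5, and STMN2 and ELAVL4 had 0 counts throughout. The labelled cell type thus had its markers on every day, and these 2 neuronal markers were absent. Of the other neuronal markers, DCX had 0 counts at day 0 only, GAP43 at day 2 only and NEFL at day 5 only. Markers of smooth muscle or myofibroblasts, of which 4, 4 and 5 of 6 reached 1 CPM, summed to 1029 to 1050 CPM at day 0 and 146.4 to 147.3 at day 5. Endothelial markers, 3 of 6 at 1 CPM or more on each day, summed to 75.95 to 76.92 CPM at day 0 and 144.2 to 147.0 at day 5, with CDH5 at 0 counts at days 2 and 5. Keratinocyte or epithelial markers (2 of 6 at 1 CPM or more) summed to 54.48 to 56.16 CPM at day 0 and 24.41 to 27.08 at day 5, with KRT5 and KRT14 at 0 counts throughout. Leukocyte markers (2, 2 and 1 of 6) summed to 96.72 to 98.39 CPM at day 0, 132.3 to 133.7 at day 2, then 45.53 to 49.72 at day 5, with CD3E at 0 counts throughout. The part of these marker changes in the results below was not tested. In bulk RNA, fewer cells that express a gene and less RNA of that gene per cell cannot be told apart.

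TEAD factors bind the letters GGAATG, and the DNA just upstream of several of these genes holds them. The RefSeq promoter table for GRCh38.p14 had entries for 6 of the 10 genes, and the 250 bases before each start were searched on both strands. The CCN2 window is shown because it held 3 matches, at 169, 104 and 95 bases upstream of the start, with the matches in capitals. It lies on the minus strand at chr6:131951374-131951622, ends just before the first annotated exon and is given 5′ to 3′ on the strand of the gene.
CCN2: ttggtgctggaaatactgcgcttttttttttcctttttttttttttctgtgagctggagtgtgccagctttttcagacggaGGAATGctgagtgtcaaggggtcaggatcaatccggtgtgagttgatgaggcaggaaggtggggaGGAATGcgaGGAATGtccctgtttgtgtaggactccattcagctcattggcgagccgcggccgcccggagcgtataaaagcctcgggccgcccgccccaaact

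For the other genes with a match, 30 bases around each match are shown so that the flanks can be compared, again on the strand of the gene with the match in capitals. ANKRD1 (minus strand) had 2 matches, at 220 bases (chr10:90921290-90921319) and 128 bases (chr10:90921198-90921227) upstream of the RefSeq start. YAP1 (plus strand, chr11:102110273-102110302) had 1 at 162 bases. AMOTL2 (minus strand, chr3:134374499-134374528) had 1 at 69 bases in 1 of its 2 entries, read on the opposite strand as CATTCC. AJUBA (minus strand, chr14:22976884-22976913) had 1 at 59 bases in 1 of its 2 entries.
ANKRD1, 220 upstream: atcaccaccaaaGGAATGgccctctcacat
ANKRD1, 128 upstream: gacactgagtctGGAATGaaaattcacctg
YAP1, 162 upstream: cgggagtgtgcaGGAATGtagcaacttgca
AMOTL2, 69 upstream: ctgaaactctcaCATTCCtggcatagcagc
AJUBA, 59 upstream: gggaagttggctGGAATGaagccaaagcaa

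By GENCODE release 29 the matches of AMOTL2 and AJUBA and the nearer match of ANKRD1 lie inside exons annotated from other start sites. No match was found in the LATS2 window. Of all 35116 windows of this length in the table, 4175 (11.9%) held at least 1 match and 29 (0.0826%) held 3 or more. The cAMP response element TGACGTCA was in none of the 8 entries of these genes and in 578 windows (1.65%). The shorter cAMP-related motif TGACG, which is part of the full element, was in 1 of these entries, that of LATS2 at 23 bases upstream, and in 7451 windows (21.2%). A match is a stretch of letters and not a measured binding site, and no match says only that these letters are not in this window.

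The 10 genes lie on 9 chromosomes of GRCh38, and all are annotated as protein-coding. In GENCODE release 29, CCN1 (ENSG00000142871, formerly CYR61) lies on chromosome 1 at 85580761 to 85583962. CCN2 (ENSG00000118523, formerly CTGF) lies on chromosome 6 at 131948176 to 131951373, and CCN5 (ENSG00000064205, formerly WISP2) on chromosome 20 at 44714844 to 44728509. CCN3 (ENSG00000136999, formerly NOV) and CCN4 (ENSG00000104415, formerly WISP1) both lie on chromosome 8. YAP1 (ENSG00000137693) lies on chromosome 11 at 102110461 to 102233423 and ANKRD1 (ENSG00000148677) on chromosome 10 at 90912096 to 90921276. AMOTL2 (ENSG00000114019) lies on chromosome 3 at 134355874 to 134375479. AJUBA (ENSG00000129474) lies on chromosome 14 at 22971174 to 22982642 and LATS2 (ENSG00000150457) on chromosome 13 at 20973032 to 21061547. The values below are per gene, over all of its exons.

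The deposited annotation shows what the CCN proteins share. CCN1, CCN2 and CCN4 were each listed with the 4 modules of the family, an insulin-like growth factor binding domain, a von Willebrand factor type C domain, a thrombospondin type 1 repeat and a cystine knot. CCN5 was listed without the cystine knot, and the entry for CCN3 without the thrombospondin repeat. All 5 carried the terms integrin binding, heparin binding and insulin-like growth factor binding. The gene ontology term hippo signaling was given to AMOTL2, LATS2 and YAP1, while the pathway column of the same annotation named Hippo for CCN2, AJUBA, LATS2 and YAP1.

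**Figure D1:**
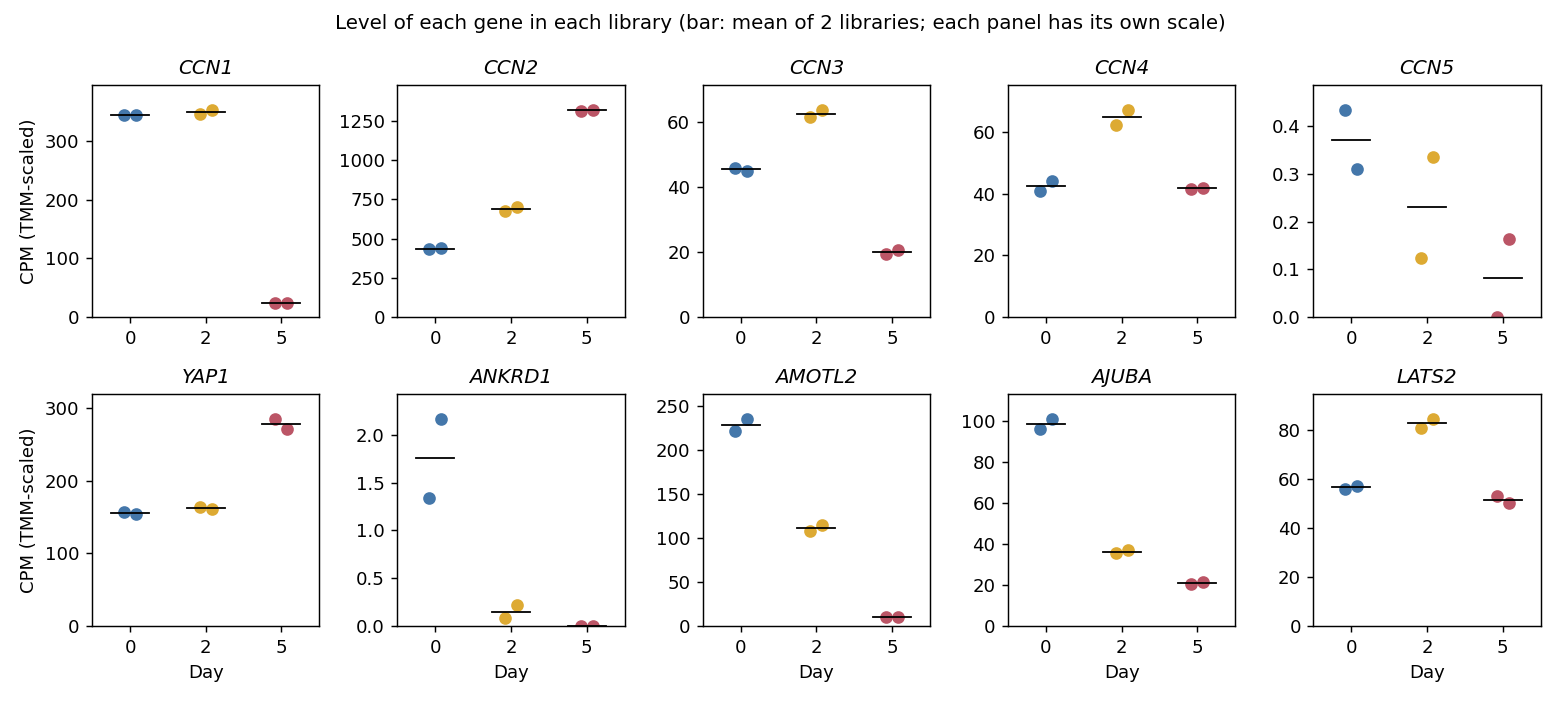
Levels of the 10 genes in each library, in TMM-scaled CPM (y axis, a separate linear scale from 0 in each panel) by day (x axis). Points are libraries and bars the mean of 2 libraries. CCN1 stays near 345 CPM at days 0 and 2 and falls to about 24 at day 5, while CCN2 goes from about 436 to 1316 CPM.

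CCN1 and CCN2, the most studied YAP targets of the family, moved in opposite directions after day 2. The CCN1 level was 344.8 and 344.7 CPM at day 0, then 345.6 and 353.0 at day 2, then 23.8 and 23.6 at day 5. The CCN2 level was 433.1 and 438.7 CPM at day 0, then 677.6 and 698.6 at day 2, then 1314 and 1319 at day 5. For CCN2 no library of one day overlapped those of another, and the level went up at each step. For CCN1 the day 0 and day 2 libraries lay close together and the day 5 libraries far below both.

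CCN1 fell 14.5-fold between day 0 and day 5 (-3.86 ± 0.04 log2, value ± standard error, edgeR quasi-likelihood adjusted p = 1.8e-21) and 14.7-fold between day 2 and day 5. Of 16327 genes tested, 363 had a log2 fold change at or below that of CCN1 at day 5 against day 0. No change of CCN1 was called between day 0 and day 2 (0.02 log2, 95% interval -0.04 to 0.07, edgeR adjusted p = 0.54). With library totals alone that value was -0.17 with an adjusted p of 2.6e-05, so no direction is given for CCN1 at day 2. CCN2 rose 1.58-fold by day 2 (0.66 ± 0.02 log2, edgeR adjusted p = 2.5e-14) and 1.91-fold from there to day 5 (0.94 ± 0.02, adjusted p = 1.1e-16), or 3.02-fold in all. An antisense gene, AL133346.1, shares exon bases with CCN2, but it held only 3 to 11 counts in a library against 10980 or more for CCN2.

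CCN3 and CCN4, the minor expressed CCN genes in these cells, both peaked at day 2. CCN3, a family member known to oppose some actions of CCN2, was at 46.0 and 45.1 CPM at day 0, then 61.5 and 63.8 at day 2, then 19.4 and 20.7 at day 5. CCN4, a Wnt-induced matrix protein, was at 41.0 and 44.1 CPM at day 0, then 62.3 and 67.1 at day 2, then 41.4 and 41.9 at day 5. For both genes the day 2 libraries lay above all others. The day 5 libraries of CCN3 lay below day 0, and those of CCN4 within the day 0 range.

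CCN3 rose by 0.46 ± 0.05 log2 at day 2 (edgeR adjusted p = 7.7e-07) and then fell by 1.64 ± 0.06 log2 to day 5 (adjusted p = 4e-13). Day 5 was 2.27-fold below day 0 (-1.18 ± 0.07 log2, edgeR adjusted p = 4.7e-11). CCN4 rose by 0.60 ± 0.06 log2 (adjusted p = 5e-08) and fell by 0.64 ± 0.06 (edgeR adjusted p = 6.4e-08). Between day 0 and day 5 the CCN4 difference was -0.03 log2 with a 95% interval of -0.16 to 0.10 (edgeR adjusted p = 0.67). It was -0.24 with library totals (adjusted p = 0.0028) and 0.01 without day 0 replicate 2, so no direction is given for it.

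CCN5, the family member without a cystine knot, was close to the limit of detection. The day 0 libraries held 11 and 9 counts of it, the day 2 libraries 3 and 9, and the day 5 libraries 0 and 3. The ratio of its summed counts at day 0 to those at day 5, corrected for depth, was 4.28, with an exact 95% interval of 1.27 to 22.5 that covers counting error only. CCN6, the remaining family member, had 2 counts in day 0 replicate 1 and none in the other 5 libraries, which allow up to 0.103 to 0.180 CPM each.

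Expressed per kilobase of transcript, so that genes can be compared, CCN mRNA came to be mostly CCN2. At day 0 CCN2 made up 50.96% and 51.28% of the summed CPM per kilobase of the 6 family genes, and CCN1 made up 41.63% and 41.34%. At day 2 the shares were 60.56% and 60.62% for CCN2 against 31.7% and 31.45% for CCN1. At day 5 CCN2 made up 95.53% and 95.44% and CCN1 1.776% and 1.756%. The ratio of CCN2 to CCN1 went from 1.22 and 1.24 at day 0 through 1.91 and 1.93 at day 2 to 53.8 and 54.3 at day 5.

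The total per kilobase over the family rose at the same time, from 363.7 and 366.0 CPM at day 0 to 478.5 and 492.9 at day 2, then 588.3 and 591.0 at day 5. The shares of CCN3 were 5.140% and 4.997% at day 0, then 5.216% and 5.257% at day 2, then 1.341% and 1.422% at day 5. CCN4 kept to between 1.357% and 2.623% in all libraries. These shares describe mRNA and carry no test, and with lengths taken from the union of GENCODE exons the day 5 ratio of CCN2 to CCN1 was 57.9 and 58.5.

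**Figure D2:**
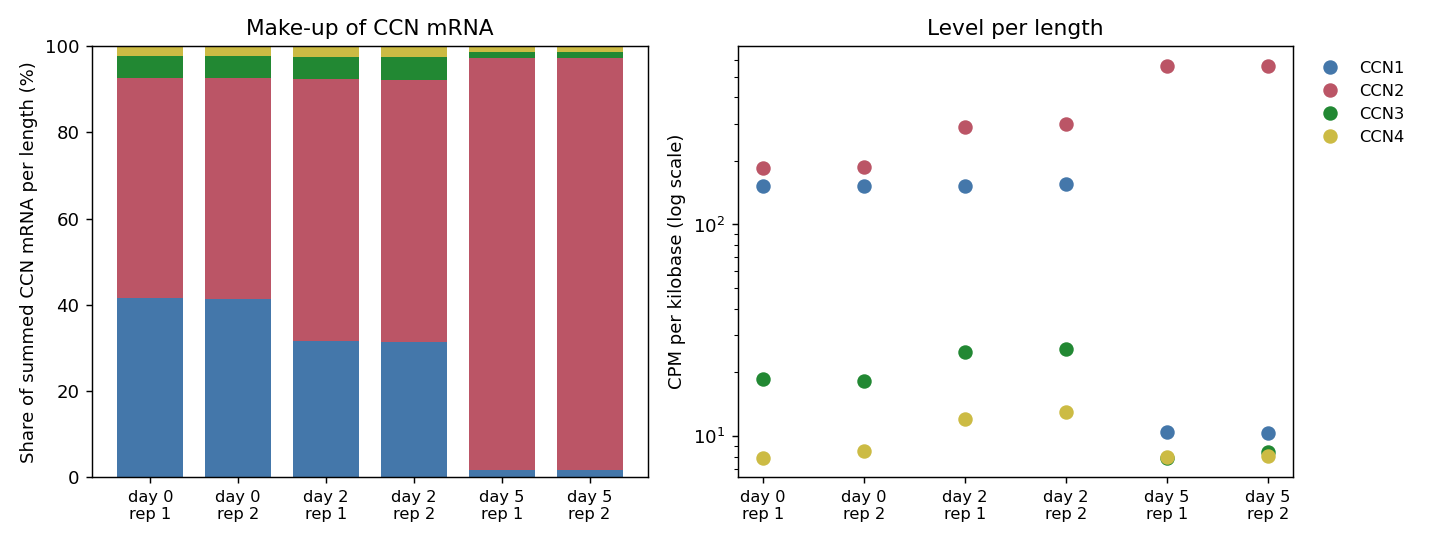
Left, share of each CCN gene in the summed CPM per kilobase of the 6 family genes (y axis, percent) in each library (x axis), with CCN5 and CCN6 too small to see. Right, the level of CCN1 to CCN4 in CPM per kilobase on a log axis. CCN1 and CCN2 lie close together at day 0 and differ 53.8 and 54.3-fold at day 5.

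YAP1 mRNA rose late. Its level was 156.6 and 153.8 CPM at day 0, then 164.2 and 161.1 at day 2, then 285.1 and 271.2 at day 5. Both day 5 libraries lay above the other 4. YAP1 was 1.79-fold higher at day 5 than at day 0 (0.84 ± 0.03 log2, edgeR adjusted p = 2.6e-13) and 1.71-fold higher than at day 2 (0.77 ± 0.03, edgeR adjusted p = 1.1e-12). Between day 0 and day 2 no change was called (0.07 log2, 95% interval -0.003 to 0.14, edgeR adjusted p = 0.084). With library totals that value was -0.12 (adjusted p = 0.0053), so it has no settled sign. An mRNA level says nothing about the phosphorylation or location of the YAP protein, which was not measured.

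ANKRD1, a nuclear ankyrin repeat protein and a widely used readout of YAP activity, was low at day 0 and fell to no counts at day 5. The day 0 libraries held 34 and 63 counts of it (1.34 and 2.17 CPM), the day 2 libraries 2 and 6 (0.083 and 0.22 CPM), and both day 5 libraries 0. The day 0 libraries lay above all others. ANKRD1 passed the filter on low counts through those libraries alone, so its calls against day 0 were partly set by the filter. The ratio of summed counts at day 0 to day 2, corrected for depth, was 11.3 with an exact 95% counting interval of 5.53 to 27.0 (edgeR adjusted p = 9.1e-05). The size rests on few counts, with a fitted log2 fold change of -3.45, or -2.95 without day 2 replicate 1 and -4.31 without day 2 replicate 2. Against a floor of 3 counts over both day 5 libraries, ANKRD1 was at least 20.8-fold lower at day 5 than at day 0 (edgeR adjusted p = 1e-05). From day 2 to day 5 it was at least 1.83-fold lower (edgeR adjusted p = 0.029). That last call was lost with limma-voom (adjusted p = 0.052) and without day 0 replicate 2 (0.053), day 2 replicate 2 (0.13), day 5 replicate 1 (0.088) or day 5 replicate 2 (0.10).

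AMOTL2 and AJUBA are scaffold proteins that bind Hippo components, and both fell at each step. AMOTL2, an angiomotin-like protein that binds YAP at junctions and actin, was at 220.7 and 234.9 CPM at day 0, then 107.8 and 114.4 at day 2, then 10.9 and 10.6 at day 5. AJUBA, a LIM domain protein that inhibits LATS kinases, was at 96.1 and 101.0 CPM at day 0, then 35.7 and 36.9 at day 2, then 20.3 and 21.5 at day 5. The libraries of the 3 days did not overlap for either gene.

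AMOTL2 fell 2.05-fold at day 2 (-1.04 ± 0.04 log2, edgeR adjusted p = 4.1e-13) and a further 10.3-fold by day 5 (-3.37 ± 0.07, adjusted p = 3.5e-17), or 21.2-fold in all. At day 5 against day 0, 274 of 16327 genes had a log2 fold change at or below that of AMOTL2. AJUBA fell 2.72-fold at day 2 (-1.44 ± 0.05, edgeR adjusted p = 1.3e-13) and 1.73-fold from there to day 5 (-0.79 ± 0.07, adjusted p = 1.8e-08), or 4.71-fold in all. On the log2 scale the larger fall of AMOTL2 thus came in the second step and that of AJUBA in the first. AJUBA shares exon bases with AL132780.3 on the same strand, which held 23 to 136 counts in a library.

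LATS2, the Hippo kinase that YAP itself is known to induce, rose and came back. Its level was 55.9 and 57.2 CPM at day 0, then 80.6 and 84.4 at day 2, then 52.8 and 50.01 at day 5. It rose by 0.55 ± 0.05 log2 at day 2 (edgeR adjusted p = 2.4e-08) and fell by 0.68 ± 0.05 log2 from day 2 to day 5 (adjusted p = 3.3e-09). At day 5 it was slightly below day 0 (-0.14 ± 0.05, edgeR adjusted p = 0.03). That small difference was no longer called with a stricter count filter (-0.12 log2, edgeR adjusted p = 0.058). It was also not called without day 0 replicate 2 (-0.13 log2) or without day 5 replicate 2 (-0.10 log2). With library totals it was -0.34 log2 (edgeR adjusted p = 2e-05). A change above 2-fold was not called.

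**Figure D3:**
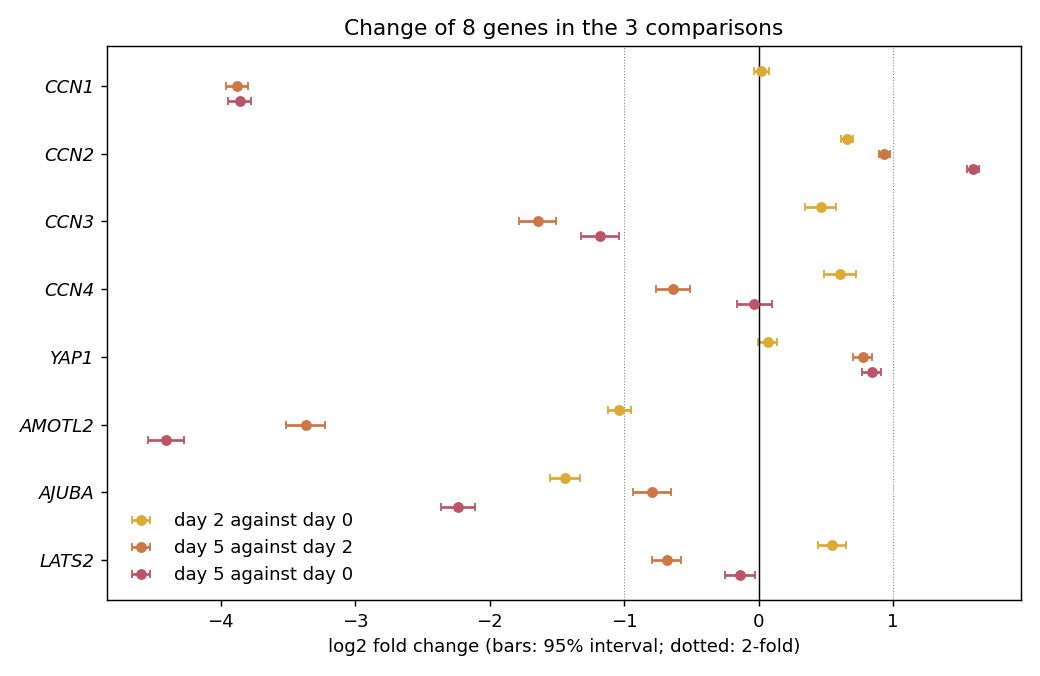
log2 fold change (x axis) of 8 of the 9 tested genes (y axis) in the 3 comparisons, with 95% intervals as bars and dotted lines at a 2-fold change. ANKRD1 is left out because both day 5 libraries had 0 counts. CCN2 and YAP1 are the genes to the right of 0 at day 5 against day 0, and CCN1 and AMOTL2 lie farthest to the left.

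As counts, 7 of the 9 tested genes were called between day 0 and day 2, beside 66.8% of all genes tested. CCN2, CCN3, CCN4 and LATS2 were higher (33.4% of all genes were called higher), and AJUBA, AMOTL2 and ANKRD1 lower (33.4% of all). Between day 0 and day 5, 8 were called beside 69.9% of all genes, with CCN2 and YAP1 higher (35.8% of all) and the other 6 lower (34.1% of all). All 9 were called between day 2 and day 5, beside 65.8% of all genes, again with CCN2 and YAP1 higher (32.1% of all) and 7 lower (33.7% of all). Since most of the 16327 genes tested passed this test, these counts are no result about the set. They include ANKRD1, whose calls against day 0 were partly set by the filter on low counts.

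A test for a change above 2-fold, made with glmTreat in edgeR, was stricter. It called AJUBA and ANKRD1 at day 2 against day 0, or 2 of 9 beside 12.5% of all genes, both lower. Of all genes 6.99% were called higher and 5.54% lower. At day 5 against day 0 it called 6 of 9 beside 20.1% of all genes, with CCN2 higher (9.74% of all) and CCN1, CCN3, AMOTL2, AJUBA and ANKRD1 lower (10.3% of all). At day 5 against day 2 it called CCN1, CCN3 and AMOTL2, or 3 of 9 beside 14.4%, all 3 lower (7.96% of all genes lower and 6.41% higher). The 3 comparisons share libraries in pairs, so their counts are not independent. The calls of ANKRD1 against day 0 were partly set by the filter on low counts.

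Whether a gene moved differently in the second step (day 2 to day 5) than in the first (day 0 to day 2) was tested directly as the difference of the log2 changes. The steps lasted 3 and 2 days, and this comparison was added after the data were seen. It was called for 8 of 9 genes beside 64.3% of all genes tested, 3 with a positive difference (30.2% of all) and 5 with a negative one (34.1% of all). The same 5 had a negative difference above 2-fold, beside 25.3% of all genes in either direction, 14.6% negative and 10.6% positive. The difference was -3.90 ± 0.06 log2 for CCN1 (edgeR adjusted p = 3.6e-19) and -2.34 for AMOTL2 (adjusted p = 8.7e-13). CCN3, CCN4 and LATS2, which rose and then fell, had differences of -2.10, -1.24 and -1.23. CCN2 rose slightly more in the second step (0.28 ± 0.04, edgeR adjusted p = 3.3e-06). YAP1 (0.71) and AJUBA (0.65) had positive differences too, YAP1 with a later rise and AJUBA with the larger part of its fall in the first step. For ANKRD1 no difference between the steps was called (edgeR adjusted p = 0.46).

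Ordered by mean CPM per kilobase at day 0, the genes ran from CCN2 (186.5) and CCN1 (151.4) through AMOTL2 (50.4), YAP1 (28.8), AJUBA (23.6), CCN3 (18.5), LATS2 (10.2) and CCN4 (8.19) to ANKRD1 (0.98) and CCN5 (0.265), with no overlap between neighbours. At day 2 YAP1 (30.1) stood next after CCN2 and CCN1, and CCN3 (25.4) and AMOTL2 (24.6) overlapped. At day 5 the order was CCN2 (563.0), YAP1 (51.5), CCN1 (10.4), LATS2 (9.27), CCN3 (8.15), CCN4 (8.03), AJUBA (5.02) and AMOTL2 (2.38), with CCN3 and CCN4 overlapping. In rank, AMOTL2 thus went from next after CCN1 to the lowest of the 8 well expressed genes, and YAP1 rose to next after CCN2. The levels themselves were far apart, with YAP1 at 51.5 and CCN2 at 563.0 at day 5. With exon-union lengths AJUBA and CCN3 changed places at day 0, CCN3 and CCN4 at day 5, and CCN5 and ANKRD1 at day 2.

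Genes of 6 related lists, put together with earlier results of these data known, are counted below as called higher or lower. The counts are to be read against the shares of all tested genes called the same way. Between days 0 and 2 these were 33.4% higher and 33.4% lower (above 2-fold, 6.99% and 5.54%). Between days 0 and 5 they were 35.8% and 34.1% (above 2-fold, 9.74% and 10.3%), and between days 2 and 5 they were 32.1% and 33.7% (above 2-fold, 6.41% and 7.96%).

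The partners through which YAP1 acts included genes called in both directions. Of 9 genes in this list 7 were tested, and 3 rose and 2 fell at day 2 (median log2 fold change -0.07, beside 0.00 for all genes), and 4 rose and 3 fell at day 5 (median 0.22 beside 0.04), both against day 0. The paralogue TAZ (WWTR1) went from 64.6 and 64.9 CPM at day 0 to 103.2 and 100.7 at day 2, then 272.6 and 269.7 at day 5. Its rise of 2.07 ± 0.04 log2 at day 5 (edgeR adjusted p = 2.5e-18) was larger than that of YAP1, though that difference was not tested.

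Among the DNA-binding partners, TEAD2 was at 51.7 and 53.5 CPM at day 0, then 46.1 and 49.6 at day 2, then 139.2 and 133.9 at day 5, or 1.51 ± 0.05 log2 from day 2 to day 5 (edgeR adjusted p = 2.7e-14). TEAD4 was at 6.35 and 6.50 CPM at day 0, then 1.71 and 1.53 at day 2, then 0.66 and 0.38 at day 5, a log2 difference of -3.63 ± 0.29 from day 0 to day 5 (edgeR adjusted p = 5.8e-09). The libraries of the 3 days did not overlap for TEAD4. VGLL4, a cofactor that competes with YAP for TEAD, rose from a mean of 44.8 through 67.7 to 120.2 CPM (1.43 ± 0.05 log2 at day 5 against day 0, edgeR adjusted p = 1.5e-14). VGLL3, a cofactor of the same family, went from 35.2 to 75.1 and then 12.7 CPM, or -2.56 ± 0.08 log2 in the second step (edgeR adjusted p = 3.1e-14). VGLL1 and VGLL2 had 0 counts in all libraries. With library totals the counts of this list were 3 higher and 4 lower at day 2, and 3 and 3 at day 5. Above 2-fold, 0 were higher and 1 lower at day 2, and 3 and 2 at day 5.

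Upstream Hippo kinases and regulators went both ways, with more called higher than lower at days 2 and 5 against day 0 but not among changes above 2-fold. Of 19 genes, all tested, 12 rose and 6 fell at day 2 (median 0.31, beside 0.00 for all genes), 11 rose and 7 fell at day 5 against day 0 (median 0.31 beside 0.04), and 8 rose and 10 fell from day 2 to day 5 (median -0.15 beside 0.01). With library totals the day 2 counts were 9 and 8 and the day 5 counts 10 and 7. Above 2-fold, 2 were higher and 2 lower at day 2, and 1 and 2 at day 5. MAP4K4, a kinase that can activate LATS, went from a mean of 273.7 to 501.2 and 452.8 CPM (0.87 ± 0.02 log2 at day 2, edgeR adjusted p = 2.6e-15). TAOK1, which activates STK3 and STK4, went from 67.6 to 149.4 and 114.1 CPM, and its relative TAOK3 from 50.1 to 77.6 and 25.4 CPM. TAOK2, a further relative, went from 149.4 to 104.3 and 135.2 CPM.

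NF2 and FRMD6, which act near the cell membrane, were lower at days 2 and 5 than at day 0. NF2 (merlin), a tumour suppressor that recruits LATS to the membrane, went from 95.6 and 103.2 CPM at day 0 to 45.9 and 40.9 at day 2, then 51.9 and 52.5 at day 5 (-1.20 ± 0.06 log2 at day 2, edgeR adjusted p = 5.5e-12). FRMD6, a related FERM domain protein, fell from 179.5 and 180.9 CPM at day 0 to 148.4 and 147.9 at day 2, then 39.0 and 40.0 at day 5 (-2.19 ± 0.04 log2 at day 5, edgeR adjusted p = 1.1e-17). For FRMD6 the libraries of the 3 days did not overlap. PTPN14, a phosphatase that binds YAP, was higher at day 5 than at day 2 (0.37 ± 0.04 log2, edgeR adjusted p = 2.8e-07). Its day 2 value against day 0 was 0.17 with TMM factors and -0.015 with library totals, so no direction is given there.

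The closest relatives of 3 of the genes, named here after their values were seen, did not all follow them. Of the angiomotin family, AMOT rose from 0.28 and 0.069 CPM at day 0 to 7.26 and 8.03 at day 5 (edgeR adjusted p = 2.5e-09). AMOT was near the detection floor at day 0. It passed the filter on low counts through the later days, so that call was partly set by the filter. AMOTL1 rose from 143.7 and 136.8 to 172.1 and 175.4 CPM (0.31 ± 0.04 log2, edgeR adjusted p = 6.2e-07), while AMOTL2 fell 21.2-fold. LATS1 rose from 12.7 and 11.6 CPM at day 0 to 21.6 and 22.4 at day 5 (0.86 ± 0.10 log2, edgeR adjusted p = 6e-07), while LATS2 ended near its starting level. The Ajuba family members LIMD1 (-0.50 ± 0.06 log2) and WTIP (-1.57 ± 0.12) fell by day 5, as did AJUBA (-2.23 ± 0.06). None of these differences between relatives was tested itself.

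Other genes known as YAP and TAZ targets went both ways. PTPN14, given above among the Hippo regulators, is also in this list, and its day 2 value is the list median. Of 17 genes, all tested, 9 rose and 8 fell at day 2 (median 0.17 beside 0.00), 7 rose and 10 fell at day 5 against day 0 (median -0.48 beside 0.04), and 6 rose and 9 fell from day 2 to day 5 (median -0.47 beside 0.01). With library totals the first 2 counts were 7 and 8 at day 2 (median -0.01), and 5 and 10 at day 5. Above 2-fold, 3 were higher and 3 lower at day 2, and 3 and 7 at day 5. F3, tissue factor, which starts blood coagulation, went from 1390 and 1396 CPM at day 0 to 2403 and 2378 at day 2, then 81.8 and 84.3 at day 5 (-4.85 ± 0.02 log2 in the second step, edgeR adjusted p = 2e-25). F3 was thus above day 0 at day 2 and far below it at day 5. IGFBP3, an insulin-like growth factor binding protein, went from 59.3 and 58.4 CPM to 127.7 and 127.4 and then 19670 and 19540 (8.38 ± 0.02 log2 at day 5, edgeR adjusted p = 3.3e-31).

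NT5E (CD73), an enzyme that makes extracellular adenosine, fell from a mean of 433.1 to 136.3 and 29.8 CPM (-3.86 ± 0.04 log2 at day 5, edgeR adjusted p = 2.6e-21). MYOF, a membrane repair protein of the ferlin family, fell from 397.7 to 251.6 and 78.4 CPM. CCDC80, a matrix protein, went from 286.0 to 133.2 and 214.7 CPM. DOCK5, an activator of Rac, rose from 19.7 to 48.1 and 53.0 CPM, and ARHGEF17, a guanine nucleotide exchange factor, went from 179.1 to 119.6 and 249.3 CPM. The list was collected from general knowledge of YAP and TAZ, with earlier results of these data known. Many of its genes answer to other factors too.

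Genes of the SRF and MRTF axis, which reads actin tension and shares targets with YAP, were mostly called lower than at day 0. Of 11 genes, all tested, 10 fell and 1 rose at day 2 (median -0.85 beside 0.00) and 10 fell and 1 rose at day 5 against day 0 (median -1.02 beside 0.04), with the same counts under library totals. From day 2 to day 5, 5 fell and 3 rose (median -0.10 beside 0.01). Above 2-fold, 3 were lower and 0 higher at day 2, and 5 and 1 at day 5. TAGLN (transgelin) fell from 789.6 and 810.1 CPM to 192.7 and 202.0 and then 5.64 and 5.51 (-7.16 ± 0.05 log2 at day 5, edgeR adjusted p = 2e-23). MYL9, a myosin regulatory light chain, fell from 824.4 to 456.1 and 45.9 CPM on average. ACTG2, a smooth muscle actin, was at 71.1 and 71.3 CPM at day 0, then 3.83 and 4.69 at day 2, then 6.72 and 7.10 at day 5. The gene that rose was the coactivator MRTFB, from 18.6 to 26.0 and 43.5 CPM on average (1.22 ± 0.08 log2 at day 5, edgeR adjusted p = 4.2e-10). FHL2, a LIM domain cofactor, went from 134.7 to 73.6 and 98.4 CPM. TAGLN, CNN1 and ACTA2 of this list are also among the 6 smooth muscle markers whose summed level is given above.

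TGF-beta is a known inducer of CCN2. Of 8 ligand and response genes, all tested, 4 rose and 2 fell at day 2 (median 0.21 beside 0.00), 5 rose and 3 fell at day 5 against day 0 (median 1.07 beside 0.04), and 4 rose and 4 fell from day 2 to day 5 (median -0.05 beside 0.01). With library totals 4 rose and 3 fell at day 2. Above 2-fold, 1 was higher and 1 lower at day 2, and 4 and 2 at day 5. The ligand TGFB1 went from 78.7 and 87.9 CPM at day 0 to 111.1 and 108.2 at day 2, then 179.0 and 186.1 at day 5 (1.13 ± 0.05 log2, edgeR adjusted p = 5.7e-13). The ligand TGFB3 went from 1.22 and 0.89 CPM at day 0 to 38.9 and 39.4 at day 5 (5.22 ± 0.16 log2, edgeR adjusted p = 6.6e-15). Both ligands were thus above day 0 in each day 5 library.

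The response genes of TGF-beta went both ways. TGFBI, a matrix adhesion protein, was at 3034, 9988 and 6124 CPM on average at days 0, 2 and 5 (1.72 ± 0.01 log2 at day 2, edgeR adjusted p = 2.8e-23). LTBP2, a matrix protein of the latent TGF-beta binding protein family, fell from 298.6 to 154.3 and 21.8 CPM on average. Of further response genes, named here after their values were seen, SKIL rose from 12.6 to 20.5 and 31.1 CPM on average. PMEPA1 rose from 9.04 to 16.7 and 27.0 CPM, and SMAD7 went from 28.4 to 26.4 and 15.6 CPM. The relation of any of these genes to CCN2 was not tested.

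Receptors that bind CCN proteins were expressed on every day. Of 9 genes, all tested, 4 rose and 5 fell at day 2 (median -0.24 beside 0.00), 4 rose and 5 fell at day 5 against day 0 (median -0.15 beside 0.04), and 2 rose and 6 fell from day 2 to day 5 (median -0.35 beside 0.01). With library totals 3 rose and 5 fell in each of the first 2 comparisons. Above 2-fold, 1 was higher and 1 lower at day 2, and 0 and 1 at day 5. The integrin alpha-V gene ITGAV went from 106.3 and 108.6 CPM at day 0 to 292.4 and 300.3 at day 2, then 176.7 and 177.7 at day 5 (1.46 ± 0.03 log2 at day 2, edgeR adjusted p = 1.1e-16). The integrin beta-1 gene ITGB1 was at 1505, 2366 and 771.0 CPM on average (-1.62 ± 0.02 log2 in the second step, edgeR adjusted p = 6.3e-21). By mean level ITGAV, ITGB1, ITGB3 and ITGB5 were highest at day 2, and ITGA5, ITGA6 and LRP6 at day 0.

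The laminin receptor chain ITGA6 fell from 45.0 to 17.3 and 13.4 CPM and the fibronectin receptor chain ITGA5 from 458.2 to 253.6 and 262.4 CPM. LRP1, an endocytic receptor that takes up CCN2, was at 2245, 1855 and 3350 CPM (0.85 ± 0.02 log2 in the second step, edgeR adjusted p = 7e-17). The heparan sulfate carrier SDC4 was at 118.5, 71.9 and 142.5 CPM (0.98 ± 0.04 log2 in the second step, edgeR adjusted p = 2.1e-12). LRP1 and SDC4 were thus lowest at day 2 and highest at day 5.

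**Figure D4:**
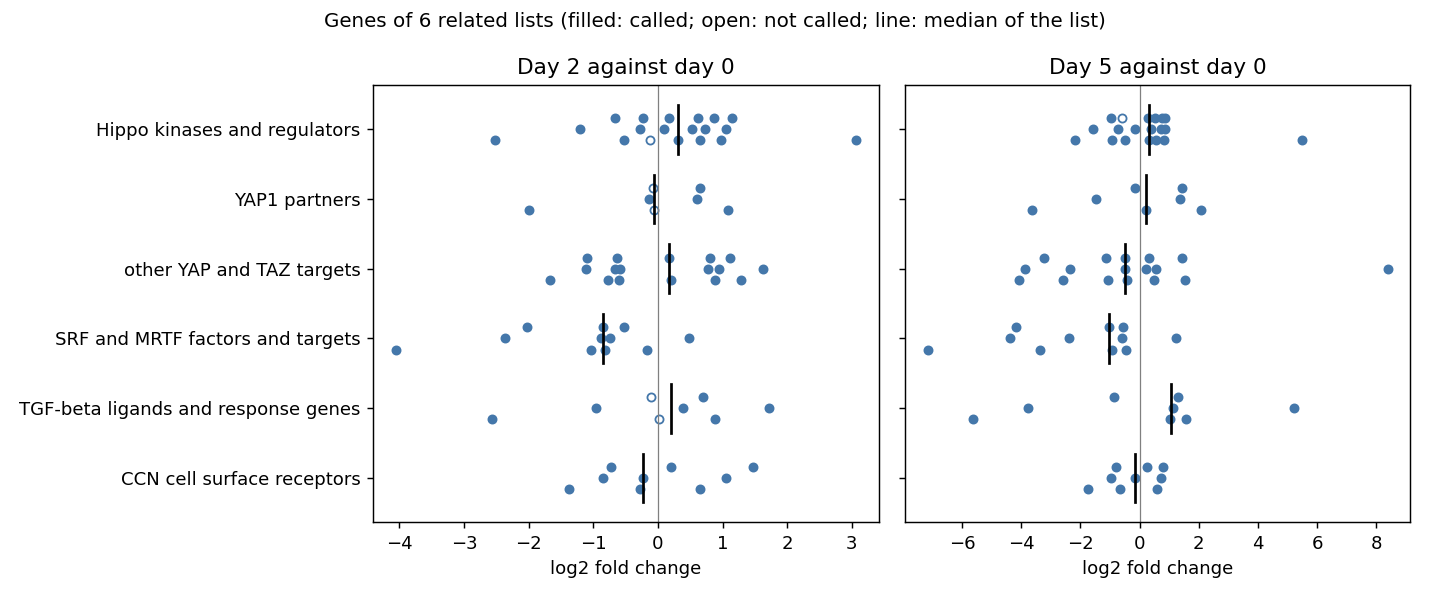
log2 fold change (x axis) of each tested gene of 6 related lists (y axis) at day 2 and at day 5, both against day 0. Filled points passed the test, open points did not, and each line is the median of the list. In the SRF and MRTF list 10 of 11 genes lie left of 0 in both panels, and in the list of other YAP and TAZ targets genes lie on both sides.

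To describe which genes had a profile like those of CCN1, CCN2 and YAP1, the root mean square difference of centred log2 CPM over the 6 libraries was taken among 10637 genes. Nearest to CCN1 was ITGA8, the integrin alpha-8 chain, with means of 110.3, 137.4 and 8.32 CPM at days 0, 2 and 5 (difference 0.141 log2). FIBCD1 (0.18) and OTULINL (0.218) followed. Nearest to CCN2 was the receptor gene LGR4, with 11.3, 18.2 and 34.5 CPM (0.019), before ITPRID2 (0.02) and P3H4 (0.029). Nearest to YAP1 were HNRNPA0 (0.035), TMEM45A (0.035) and EP300 (0.037). The differences were thus larger for the genes nearest to CCN1 than for those nearest to CCN2 or YAP1. This measure is not scaled for the size of a change, and CCN1 changed most of the 3, so it does not rank closeness between them. Such likeness rests on 3 time points and is a description only.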

How the data were processed

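The 6 libraries were made with an Illumina TruSeq RNA kit from DNase-treated TRIzol RNA, per the labels' protocols. The authors deposited an expected count for each gene and library, per the file headers, with no scaling between samples. The submitters' processing notes name GRCh38. The aligner, counter, annotation release and strand setting are not given in the sources used here, so reads of overlapping genes cannot be told apart.

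Of 60843 genes, 172 without a name (0.0356 to 0.0475% of counts) were left out. Of the values 87.2% were whole, and the rest were rounded. All 6 libraries entered 1 fit by day in edgeR 4.0.16 (R 4.3.3): TMM factors, filterByExpr (minimum count 10, minimum total 15), and the two-sided quasi-likelihood test with 3 residual degrees of freedom. This left 16327 genes, with Benjamini-Hochberg adjustment over all of them and a gene was called at adjusted p < 0.05. Its standard error (SE) is the log2 fold change divided by the square root of F. The common coefficient of biological variation was 3.33%, so small changes passed. Changes above 2-fold were tested with glmTreat. The edgeR fit was tested on simulated data with known changes in a small share of the genes, at day 2 only. That simulation held no day 5 shift such as that of IGFBP5, so it does not bear on the scaling. Detection floors are 3 counts. Floors and exact intervals reflect counting error alone.

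Levels per kilobase used the deposited length column. Coordinates came from GENCODE release 29 and sequences from the RefSeq promoter table. The 10 genes and the 6 lists were chosen with earlier results of these data known. From each list the 2 genes of lowest adjusted p in each direction of a comparison were named, and for CCN1, CCN2 and YAP1 the 3 genes of most similar profile with a mean of at least 5 CPM. The result of 1 gene that this rule takes is not reported here. Alternatives were DESeq2 1.42.0, limma-voom (limma 3.58.1), RLE factors, library totals, TMM without IGFBP5, no filter, a stricter filter (1 CPM in at least 4 libraries), only the days compared, the replicate number as a block, and leaving out each library. The comparison of the steps and the exon-union lengths were added after the data were seen.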

Additional observations from a re-analysis of the deposited data

How the results depend on the processing

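Of 562 recomputed values for single genes, 530 kept their direction and side of the threshold, and 24 lost and 1 gained a call. A further 7 changed sign, 2 of them with a new call (CCN1 and YAP1 at day 2 with library totals). The 562 include the test for a change above 2-fold, which keeps the estimate but asks for a larger change. Most of the 24 lost calls came from that test. The rest were those of LATS2 at day 5 against day 0 and of ANKRD1 at day 5 against day 2. The sign changes were those of CCN1 at day 2 (-0.0037 log2 with DESeq2, -0.17 with library totals, -0.008 with TMM without IGFBP5), YAP1 at day 2 (-0.12 with library totals), CCN4 at day 5 against day 0 (0.012 without day 0 replicate 2), and ANKRD1 in the comparison of the steps (0.95 with limma-voom, 0.30 without day 2 replicate 2). The cause was not tested. The number of genes called was 2 at day 2, 3 at day 5 against day 2 and 5 in the comparison of the steps when a change above 2-fold was required. With library totals 9 were called at day 2 (4 higher, 5 lower) and 9 at day 5 against day 0. With the stricter filter, which removed ANKRD1, 6 of 8 were called in each of these. Over the fits that each left out 1 library, the value ran from -0.0913 to 0.012 for CCN4 at day 5 against day 0 and from -2.47 to 0.30 for ANKRD1 in the comparison of the steps. Leaving out each library in turn gave 7 genes called at day 2, 7 to 8 at day 5 against day 0, 8 to 9 at day 5 against day 2 and 8 for the steps. Same-numbered libraries did not deviate together (correlations of 0.029, 0.049 and 0.073 over 9397 genes). These values show no pairing by number but cannot tell how the libraries were handled. With the replicate block the counts of called genes stayed at 7, 8, 9 and 8. ANKRD1 could not be fitted in day 5 against day 2 with only those days or with the stricter filter, and the comparison of the steps has no fit with only 2 days. Of the members, depth limits ANKRD1 and CCN5, whose levels lie near the floor.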
